A study of Homo sapiens with 6 samples.

Results

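RNA Helicase A, the product of DHX9, and a group of related RNA helicase and FET protein genes were followed in fusion-positive rhabdomyosarcoma (FP-RMS) cells treated with a small-molecule drug. The members were the rows of the gene table with the symbols DHX9, DHX15, DHX36, DDX5, DDX17, DDX21, EWSR1 and TAF15, which is 8 of 35268 named genes, and all 8 were among the 13930 genes tested. They were chosen by name, because the drug, labelled YK in the deposited table, was first found as a blocker of the binding of RNA Helicase A to EWS-FLI1, the fusion protein of Ewing sarcoma. Polyadenylated RNA was sequenced from Rh30 cells, a patient-derived FP-RMS line that carries the PAX3-FOXO1 fusion. Cells received 1 µM of the drug dissolved in DMSO, or DMSO alone, for 24 hours, and each group had 3 libraries. The comparison therefore rests on 1 cell line, 1 dose and 1 time. It asks whether the RNA levels of the helicase and of the FET genes differed when the drug was present, and the binding of the proteins was not measured in these libraries.

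Helicases of the DEAD-box and DEAH-box families use ATP to separate RNA strands or to strip proteins from RNA, and they act in splicing, ribosome assembly, export and transcription. RNA Helicase A is a DEAH-box enzyme that unwinds RNA, DNA and mixed duplexes and links transcription factors and coactivators to RNA polymerase II. The FET proteins, EWSR1 and TAF15 among them, bind RNA and carry a disordered amino-terminal region that drives transcription when it is fused to a DNA-binding domain, as in EWS-FLI1. FLI1 and ETS1 belong to the ETS family, whose DNA sites are built around the letters GGAA.

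The bases upstream of the gene start are shown for DHX9, the member with the largest difference, for DHX36 and for DDX21, because the drug also acts on ETS factors. They are reference sequence (RefSeq, GRCh38.p14), 5′ to 3′ on the strand of the gene, and capitals mark GGAA or its reverse complement TTCC. The DHX9 stretch is chr1:182839097-182839346 on the plus strand, the DHX36 stretch is chr3:154324488-154324737 on the minus strand and the DDX21 stretch is chr10:68955920-68956134 on the plus strand.
DHX9: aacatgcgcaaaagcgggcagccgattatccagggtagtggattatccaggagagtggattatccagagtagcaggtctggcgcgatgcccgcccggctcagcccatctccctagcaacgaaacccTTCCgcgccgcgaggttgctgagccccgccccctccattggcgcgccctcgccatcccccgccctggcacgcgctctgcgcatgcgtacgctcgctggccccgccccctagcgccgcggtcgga
DHX36: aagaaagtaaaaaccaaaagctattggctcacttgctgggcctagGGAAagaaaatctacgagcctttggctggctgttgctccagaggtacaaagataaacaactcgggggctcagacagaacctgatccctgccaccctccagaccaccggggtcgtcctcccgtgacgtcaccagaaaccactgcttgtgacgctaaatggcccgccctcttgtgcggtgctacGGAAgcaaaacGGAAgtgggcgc
DDX21: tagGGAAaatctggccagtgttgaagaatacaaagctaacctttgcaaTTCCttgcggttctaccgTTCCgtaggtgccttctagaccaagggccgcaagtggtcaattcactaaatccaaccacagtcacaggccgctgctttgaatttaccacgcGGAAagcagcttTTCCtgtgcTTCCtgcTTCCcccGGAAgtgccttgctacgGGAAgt

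The 3 stretches differed in how many of these letters they held. The DHX9 stretch held GGAA or TTCC at 1 place in 250 bases and was 67.6% G or C. The DHX36 stretch held them at 3 places in 250 bases, and the DDX21 stretch at 9 places in 215 bases. The search covered both strands and the 250 bases before each RefSeq start, for 7 of the 8 members and 10 starts, since TAF15 had no entry. GGAA or TTCC occurred in the windows of all 7, as in 92.7% of 35116 promoters, and so does not set the members apart. The longer ETS letters CCGGAAGT or ACTTCCGG, which contain GGAA or TTCC, occurred in 3.42% of all promoters and in 1 window each of DDX21 and DDX5. In DDX21 they stood 60 bases before that RefSeq start, which lies inside the gene beyond the end of the printed stretch. In DDX5 they stood 123 bases before 1 of its RefSeq starts, and that whole window lies inside the gene. The shorter form CGGAAGT or ACTTCCG occurred in 5.69% of promoters and also in that of DHX36. The letters describe these windows alone, with no test of binding.

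The libraries held between 16724650 and 24677433 reads on named genes, so that every member rested on at least 1607 reads in each library. All 6 rhabdomyosarcoma markers looked for were present, among them MYOD1 at 34516 to 39146 normalized counts, and the markers of the other cell types looked for summed to 78.5 to 93.9 in DMSO and 85.8 to 133 in drug-treated libraries. Of these 10, 3 had a mean of at least 10, EPCAM, PECAM1 and CDH5, and CCK was at 0 in every library. DMSO replicate 1 was unlike the others. Its mean correlation with the others over genes was 0.989, against at least 0.992 for the rest, and mitochondrial genes took 6.05% of its reads, against 4.74% to 5.03%. Its departure from DMSO replicates 2 and 3 followed the GC content of the transcript, from a median log2 difference of 0.21 over 2241 genes below 40% GC to -0.28 over 2140 genes at or above 60% GC. The members had the sign of this trend. All 6 helicase genes, with transcripts of 38.4% to 45% GC, were higher in DMSO replicate 1 than in DMSO replicates 2 and 3. EWSR1 and TAF15, at 53.2% and 50.7% GC, were lower. The sizes differed from the bin medians for some members. TAF15 departed by -0.28 and EWSR1 by -0.11, where the median from 50% to 55% GC was -0.054. DHX9 departed by 0.23, where the median from 40% to 45% GC was 0.15. The difference of each member is therefore also given without this library, and the part of its departure in the results was not tested.

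**Figure D1:**
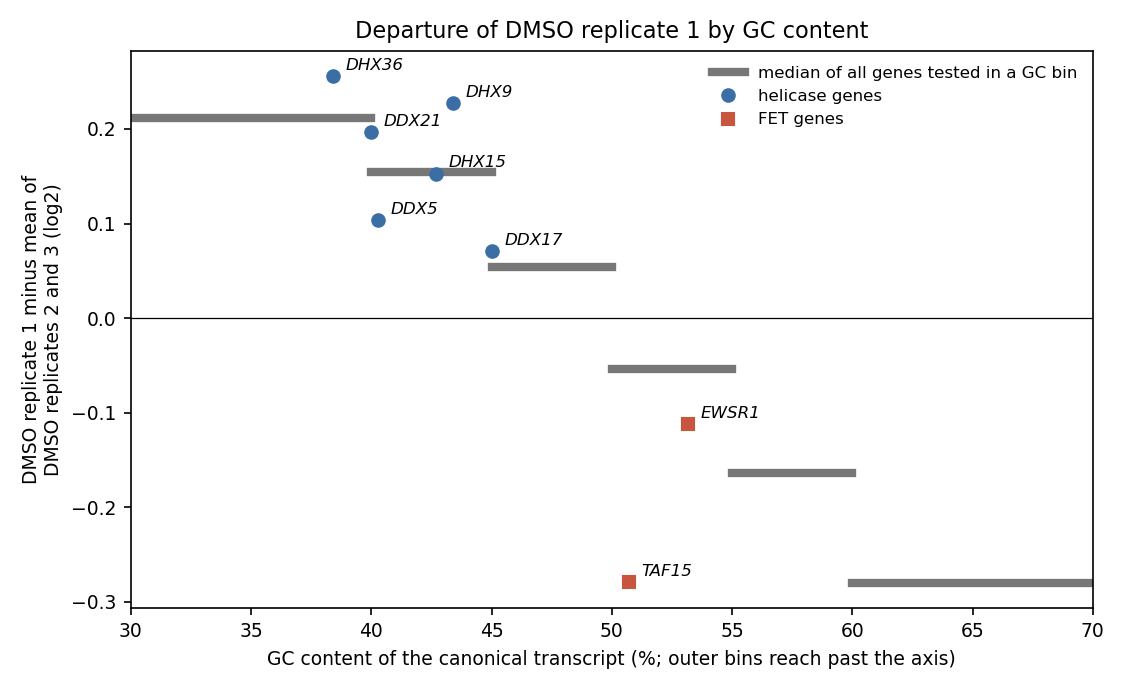
Log2 difference of DMSO replicate 1 from the mean of DMSO replicates 2 and 3 (vertical axis) against the GC content of the canonical transcript in percent (horizontal axis); grey bars are medians of all genes tested in a GC bin and points are the 8 members. The 6 helicase genes lie above 0, up to 0.26 for DHX36, and the 2 FET genes lie below 0, down to -0.28 for TAF15.

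DHX9 (ENSG00000135829.17, chr1:182839347-182887982, plus strand, GENCODE 44 on hg38) was the member with the largest difference between the groups. Its normalized counts, in which the reads of a library are divided by 1 common factor, were 10480.5, 8936 and 8969 in the DMSO libraries and 7756, 8267 and 8055 in the drug-treated libraries. Every drug-treated library lay below every DMSO library, and DMSO replicate 1 was the highest of the 6, 17.1% above the mean of the other two DMSO libraries. The means were 9462 ± 882 (SD, n = 3) with DMSO and 8026 ± 257 (SD, n = 3) with the drug, a difference of -15.2%. On the scale of log2(normalized count + 1) the difference was -0.23 (SE 0.07, 95% interval -0.38 to -0.09), which did not pass the test over all genes (limma, unadjusted p = 0.00368, Benjamini-Hochberg adjusted p = 0.0735). The replicates are not stated to be separate cultures, so the p-values measure the spread between these libraries, and in bulk RNA fewer cells of a type and less RNA per cell cannot be told apart.

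Whether DHX9 passed depended on the fit and on which libraries entered it. Without DMSO replicate 1 the difference was smaller, at -0.16 (SE 0.04, 95% interval -0.24 to -0.08), and it passed (limma adjusted p = 0.00376). Against DMSO replicates 2 and 3 alone the mean normalized count differed by -10.4%. With the trend of GC content and transcript length removed from each library the difference was -0.20 (SE 0.04, 95% interval -0.29 to -0.12, limma adjusted p = 0.00280). Both fits also called more of all genes lower, 8.46% without DMSO replicate 1 and 10.4% with the trend removed, against 2.15% in the limma fit on the 6 libraries as deposited. DHX9 also passed without DMSO replicate 2 (-0.27, limma adjusted p = 0.0424), where 2.96% of all genes were called lower, and in DESeq2 on the recovered reads (-0.22, adjusted p = 0.0432), where 3.36% were. It did not pass in edgeR (-0.22, adjusted p = 0.0795). Over all 18 alternatives its difference ranged from -0.27 to -0.16 and its adjusted p from 0.00280 to 0.336, with 5 passing, and in each of them it was below 0.

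**Figure D2:**
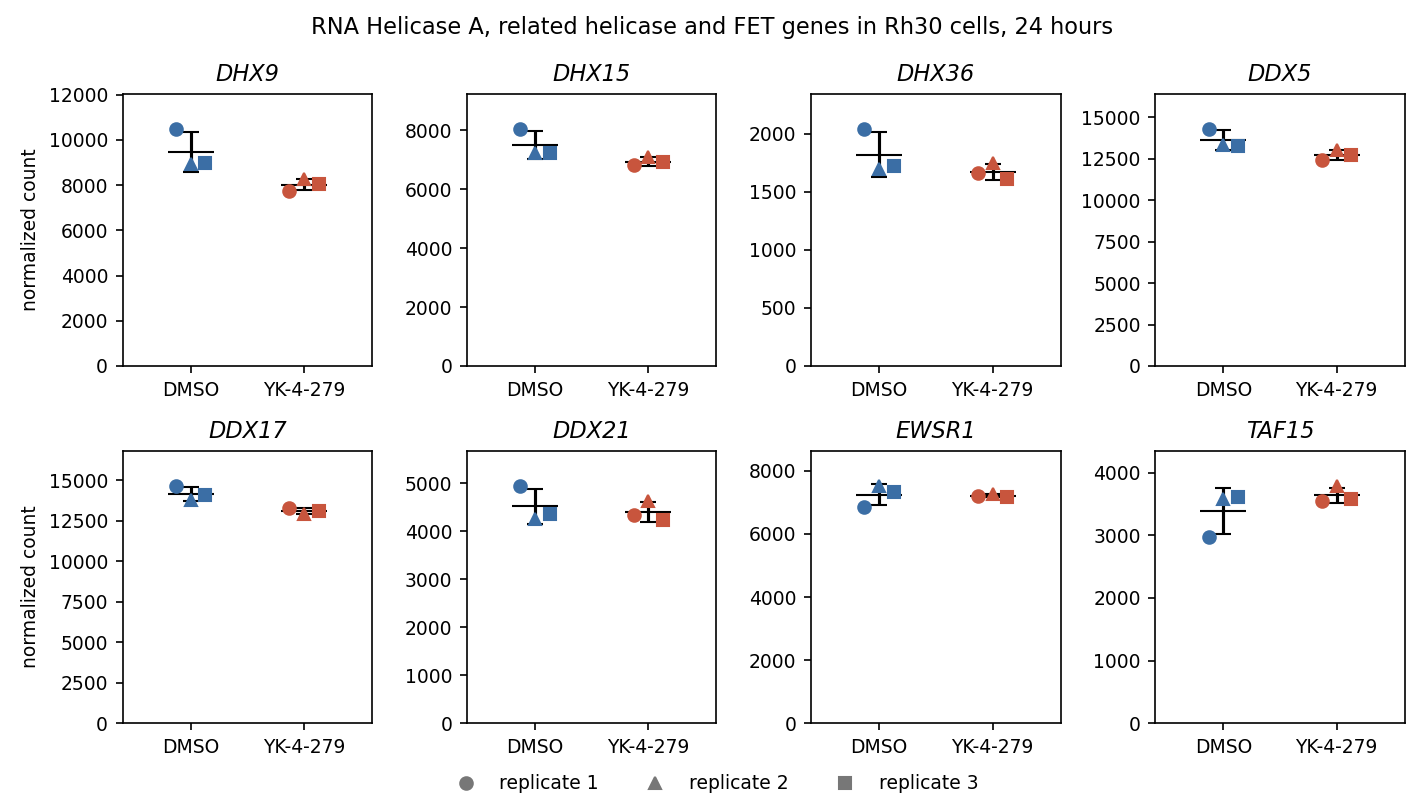
Normalized count (vertical axes, each starting at 0) of the 8 members in the 3 DMSO and the 3 drug-treated libraries (the full name of the drug is on the horizontal axis); each point is 1 library, marked by its replicate number, and bars show the mean ± SD. The drug-treated libraries of DHX9, from 7756 to 8267, all lie below its DMSO libraries, and DMSO replicate 1 is the highest DMSO library for each of the 6 helicase genes and the lowest for EWSR1 and TAF15.

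The other DEAH-box members had differences below 0 that did not pass the test. DHX15 (chr4:24517441-24584554, minus strand), the helicase that takes the spliceosome apart after splicing, had normalized counts of 8046, 7229 and 7246 with DMSO and 6816, 7091 and 6920.5 with the drug. The groups did not overlap, and the log2 difference was -0.11 (SE 0.06, 95% interval -0.24 to 0.01, limma adjusted p = 0.330). Without DMSO replicate 1 it was -0.060. DHX36 (chr3:154272546-154324487, minus strand), which resolves G-quadruplexes, had 2041, 1694 and 1725 with DMSO and 1663, 1746 and 1609.8 with the drug. These groups overlapped, since drug-treated replicate 2 lay above DMSO replicates 2 and 3. The log2 difference was -0.12 (SE 0.08, 95% interval -0.28 to 0.05, limma adjusted p = 0.438), and -0.032 without DMSO replicate 1, the library that was 19.4% above the other two.

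The DEAD-box members DDX5 and DDX17 encode close paralogs, p68 and p72, which act as transcription coactivators and in splicing and microRNA processing. DDX5 (chr17:64498254-64508199, minus strand) had normalized counts of 14301, 13347 and 13271 with DMSO and 12448, 13039 and 12738 with the drug. DDX17 (chr22:38483438-38507660, minus strand) had 14634, 13791 and 14077 with DMSO and 13325, 12909 and 13108 with the drug. Both genes were lower in every drug-treated library than in any DMSO library, and neither passed the test. The log2 difference was -0.10 for DDX5 (SE 0.05, 95% interval -0.21 to 0.02, limma adjusted p = 0.360), and -0.063 without DMSO replicate 1. It was -0.11 for DDX17 (SE 0.05, 95% interval -0.22 to 0.00, limma adjusted p = 0.275), and -0.088 without that library. The balance of the paralogs within a library, which does not depend on scaling, showed no difference larger than its spread. The ratio of DDX5 to DDX17 was 0.977, 0.968 and 0.943 with DMSO and 0.934, 1.01 and 0.972 with the drug, a log2 difference of 0.013 (exact two-sided permutation test, p = 0.9, n = 3 in each group), and of 0.024 without DMSO replicate 1. Reads that the paralogs share could be assigned to either gene or to neither, and how such reads were handled is not given in the sources used here.

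DDX21 (chr10:68956135-68985068, plus strand), a nucleolar helicase of ribosomal RNA production, had normalized counts of 4934, 4251 and 4361 with DMSO and 4336, 4636 and 4232 with the drug. The groups overlapped, and DMSO replicate 1 was the highest library. The log2 difference was -0.03 (SE 0.07, 95% interval -0.18 to 0.11, limma adjusted p = 0.821) and its sign depended on the fit, at 0.031 without DMSO replicate 1 and 0.020 after quantile normalization.

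EWSR1 (chr22:29268009-29300525, plus strand), the source of the EWS part of EWS-FLI1, was at nearly the same level in both groups. Its normalized counts were 6867, 7510.35 and 7336 with DMSO and 7199, 7259 and 7169.6 with the drug. The drug-treated libraries lay within the range of the DMSO libraries. The log2 difference was -0.0046 (SE 0.06, 95% interval -0.12 to 0.11, limma adjusted p = 0.977), or -0.042 without DMSO replicate 1, and its sign changed under TMM scaling, quantile normalization and the count tests. TAF15 (chr17:35809482-35864615, plus strand), a FET protein found with the general transcription factor TFIID, had 2966, 3582 and 3614 with DMSO and 3555, 3782 and 3572 with the drug. DMSO replicate 1 was the lowest of its 6 libraries, and the groups overlapped. The log2 difference was 0.11 (SE 0.08, 95% interval -0.05 to 0.27, limma adjusted p = 0.470), and 0.015 without DMSO replicate 1.

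The ratio of DHX9 to EWSR1, the helicase set against the FET gene of its fusion partner, was 1.53, 1.19 and 1.22 with DMSO and 1.08, 1.14 and 1.12 with the drug. Every drug-treated library was below every DMSO library, with a log2 difference of -0.23 (exact two-sided permutation test, p = 0.1, n = 3 in each group). This is the smallest p that 3 against 3 libraries allow, so the design could not reach 0.05. Without DMSO replicate 1, the highest of the 6, the difference was -0.12.

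**Figure D3:**
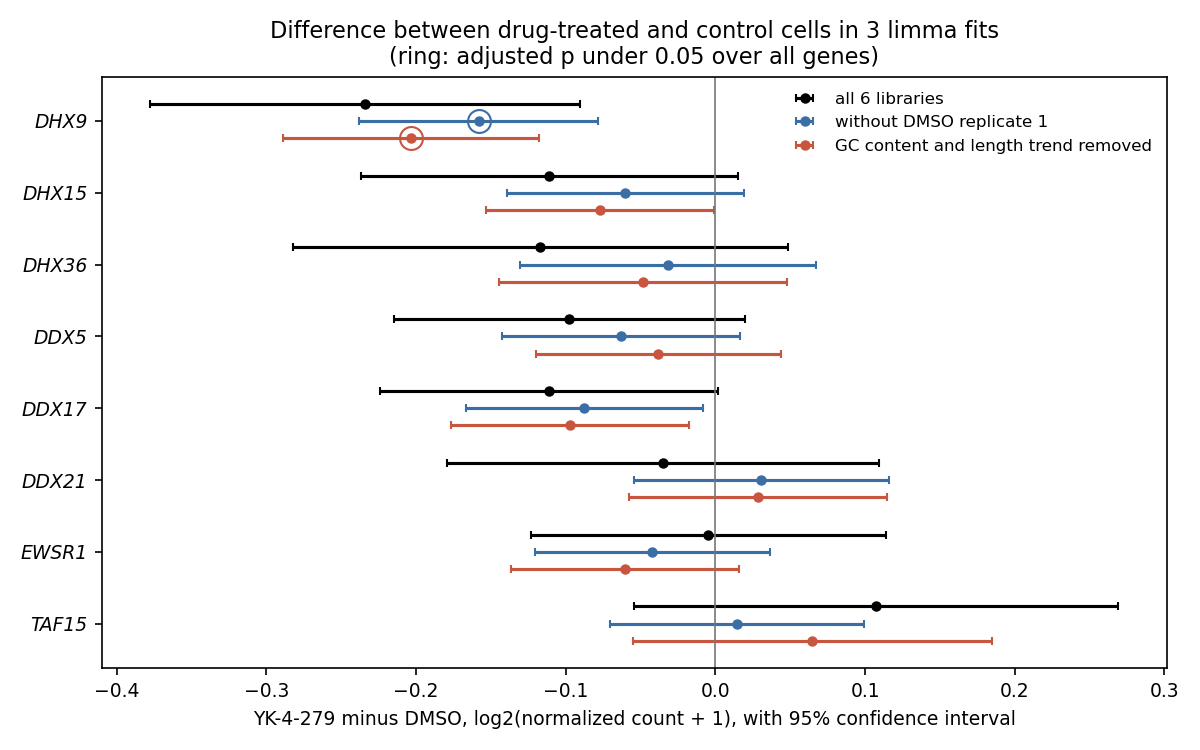
Difference between drug-treated and DMSO libraries in log2(normalized count + 1) (horizontal axis) for the 8 members in 3 limma fits, with 95% confidence intervals; rings mark an adjusted p under 0.05 over all genes. DHX9 is ringed at -0.16 without DMSO replicate 1 and at -0.20 with the GC and length trend removed, and no other member is ringed.

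Of the 8 members, 0 passed the test over all genes, where 3.41% of the 13930 genes did (limma adjusted p under 0.05). At an unadjusted p under 0.05 there was 1, DHX9, where 18.7% of all genes were, and the count tests called 0 (edgeR) and 1 (DESeq2, DHX9). Differences were below 0 for 7 members and above 0 for TAF15, and the median was -0.10, beside -0.0075 over all genes tested. Without DMSO replicate 1 there were 6 below 0 and 2 above 0, and the median was -0.051, beside -0.012 over all genes. After quantile normalization 5 were below 0 and 3 above 0, with a median of -0.035, beside -0.0015 over all genes. Under TMM scaling 6 were below 0 and 2 above 0, with a median of -0.086, beside 0.011. With the GC and length trend removed the median was -0.054, beside -0.027 over all genes. The groups did not overlap for 4 members, DHX9, DHX15, DDX5 and DDX17, all with the drug-treated libraries lower, and 15.1% of all genes showed that pattern. DHX15, DHX36, DDX5, DDX17, DDX21, EWSR1 and TAF15 passed in none of the 18 alternatives.

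Levels were compared between genes per kilobase of the canonical transcript. DDX5 was the highest, at 3702 ± 156 normalized counts per kilobase with DMSO (SD, n = 3), followed by EWSR1 at 3016 ± 139 and DDX17 at 2976 ± 90.1, which did not differ beyond their spread. DHX15 stood at 2504 ± 156 and DHX9 at 2106 ± 196. TAF15 had 1567 ± 169, DDX21 968 ± 78.6 and DHX36, the lowest, 271 ± 28.6. The order was the same with the drug. There the mean ± SD of DHX9, 1786 ± 57.2, overlapped that of TAF15, 1682 ± 58.4. Those of EWSR1, 3004 ± 18.9, and DDX17, 2754 ± 43.7, did not overlap. These ranges leave out that the genes were measured in the same libraries. Exons of other genes on the same strand covered at most 1.78% of a member's exon bases, in DDX5, and exons on the opposite strand at most 2.71%, also in DDX5.

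The wider helicase families gave the setting for these values. Of 18 DEAH-box genes 16 were tested, and 0 passed, where 3.41% of all genes tested did. In this family 12 were below 0 and 4 above 0, with a median of -0.046, beside -0.0075 over all genes. YTHDC2, a DEAH-box protein of germ cell meiosis that binds methylated RNA, had the largest difference in this family, from 1186 ± 82.3 to 987 ± 33.4 normalized counts. Its groups did not overlap, and the log2 difference was -0.26 (SE 0.07, limma adjusted p = 0.0646). It passed without DMSO replicate 1 (-0.21, limma adjusted p = 0.00729), as DHX9 did. Of 36 DEAD-box genes 33 were tested, and 0 passed, beside the same 3.41% of all genes. There 24 were below 0 and 9 above 0, with a median of -0.050. The largest differences at a mean of at least 100 were -0.18 for DDX52 (limma adjusted p = 0.293) and -0.15 for DDX20 (limma adjusted p = 0.404), a partner of the SMN complex. Without the members, the median was -0.034 in the DEAH-box and -0.042 in the DEAD-box family, and both turned to 0.010 after quantile normalization. Without DMSO replicate 1 these medians were 0.019 and -0.036, and with the GC and length trend removed they were -0.055 and -0.042, beside -0.027 over all genes.

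The 20 genes for proteins that bind or work with the members had 2 called lower and 0 called higher, where 2.15% of all genes were called lower and 1.26% higher. The list was chosen with earlier results of these data known, so its counts beside these shares are a description and not a test. Of these 20, 13 were below 0 and 7 above 0, with a median of -0.052. TOP2A, the topoisomerase of dividing cells, whose protein binds RNA Helicase A, fell from 22136 ± 2256 to 16121 ± 684 normalized counts (SD, n = 3). Its log2 difference was -0.45 (SE 0.07, limma adjusted p = 0.00626), and the groups did not overlap. BRCA1, a DNA repair protein that RNA Helicase A links to RNA polymerase II, fell from 1893 ± 180 to 1487 ± 17.4, a log2 difference of -0.34 (SE 0.07, limma adjusted p = 0.0226), also with no overlap. TOP2A passed in 15 of the 18 alternatives (limma, edgeR or DESeq2 adjusted p from 2.24e-09 to 0.111) and BRCA1 in 11 (adjusted p from 6.36e-05 to 0.145). TOP2A did not pass without drug-treated replicate 1 or 2, and BRCA1 did not pass without DMSO replicate 3 or without any 1 of the drug-treated replicates, nor after quantile normalization (limma adjusted p = 0.0546) or with the replicate block (limma adjusted p = 0.0511). Neither passed without the trend in eBayes. Without DMSO replicate 1, 4 partner genes were called lower and 3 called higher, where 8.46% of all genes were called lower and 4.62% higher. With the GC and length trend removed 5 were called lower and 0 higher, with a median of -0.070, where 10.4% of all genes were called lower and 3.57% higher. After quantile normalization 1 was called lower and 1 higher, where 1.04% of all genes were called lower and 0.948% higher. The median of the partner genes was then 0.013.

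**Figure D4:**
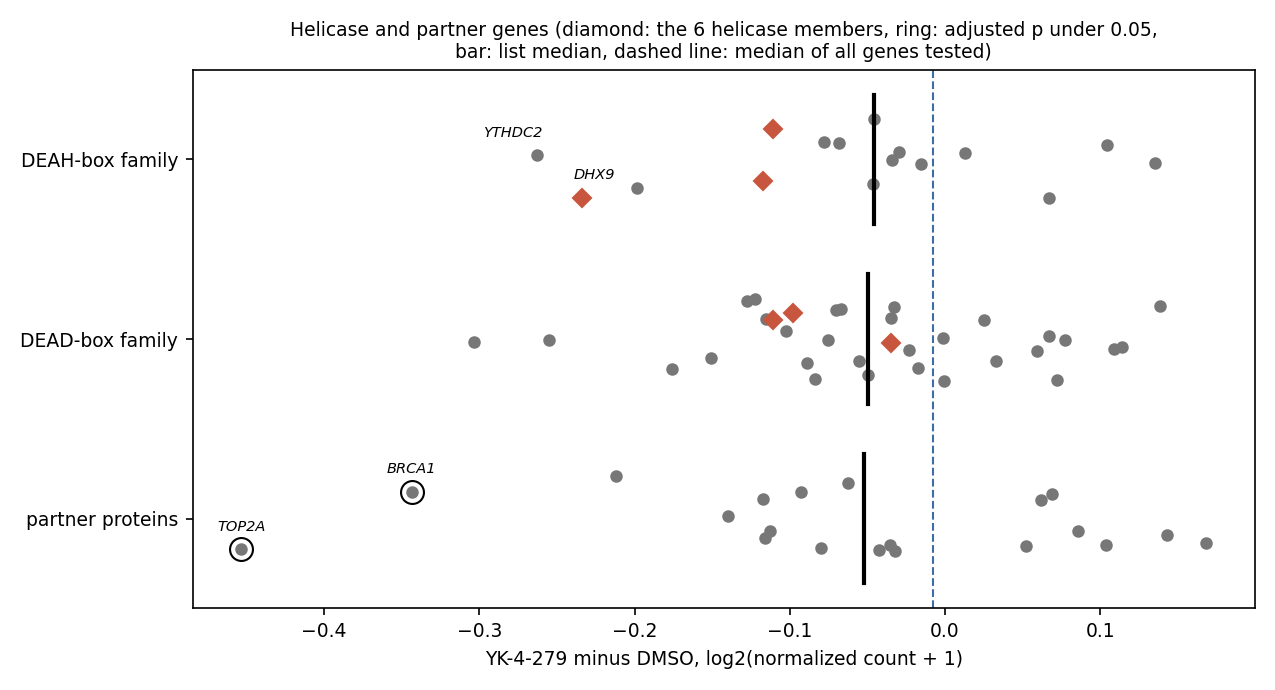
Difference between drug-treated and DMSO libraries in log2(normalized count + 1) (horizontal axis) for each tested gene of the DEAH-box and DEAD-box families and of the partner proteins; diamonds are the 6 helicase members, rings mark an adjusted p under 0.05, bars are list medians and the dashed line is the median of all genes tested. TOP2A at -0.45 and BRCA1 at -0.34 carry the only rings among these genes in the fit on 6 libraries.

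The genes whose levels followed that of DHX9 most closely over the 6 libraries were ANLN, a scaffold protein of cell division (Pearson r = 0.9997), EIF2S3, a subunit of the initiation factor that brings the first tRNA (r = 0.9989), NAA50, an acetyltransferase (r = 0.9987), UFM1, a ubiquitin-like modifier (r = 0.998), and PTGES3, a cochaperone (r = 0.998). Among the members, the correlation with DHX9 was 0.990 for DDX5, 0.985 for DHX15, 0.898 for DDX17, 0.889 for DHX36 and 0.685 for DDX21. It was -0.450 for EWSR1 and -0.803 for TAF15. Such values were common, since 1317 of 10698 genes with a mean of at least 100 (12.3%) had a correlation of at least 0.9 with DHX9. The 6 points are the same libraries for every gene and include DMSO replicate 1, in which the helicase genes were high and the FET genes low.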

How the data were processed

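RNA was measured in 6 Rh30 libraries, 3 for each group. Per the methods and the submitters' processing notes, the authors used BBDuk for trimming, STAR 2.7.9a for alignment (hg38) and gene counts, and DESeq2 1.44.0. The annotation and strand setting are not given in the sources used here. The deposited table holds a normalized signal (count) for each gene and library, and 100% of its values were whole multiples of the value of 1 read (tolerance 1e-06). Of 35269 rows, 1 without a gene name (at most 6 reads per library) was left out.

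The test was two-sided and used limma 3.58.1 in R 4.3.3, as a moderated linear fit with an intensity trend. It was applied to log2(normalized count + 1) where the mean of all 6 libraries reached 10, with Benjamini-Hochberg adjustment over all genes and a threshold of 0.05. The study's methods name DESeq2; because the values are normalized, edgeR 4.0.16 and DESeq2 1.42.0 were run on the recovered reads as alternatives. Other alternatives were the scaling, pseudocount, filter, trend, replicate block, removal of a GC and length trend, and leaving out each library. Scripts were tested on simulated data.

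The members and the gene lists were chosen with earlier results of these data known. All members were named, and in each list every gene called, the highest mean and the 2 largest differences at a mean of at least 100. Some genes that this rule takes in are not reported here. Coordinates and transcripts are from GENCODE 44, and 98.4% of the genes tested had a GC content.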

Additional observations from a re-analysis of the deposited data

How the results depend on the processing

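The calls and differences of genes were recomputed under 18 alternatives and the ratios within libraries under 7. List medians were recomputed under 4 of them, and the correlations with DHX9 and the order of levels under none. DHX15, DHX36, DDX5, DDX17 and TAF15 kept their sign and were called in none of them. The number of members called was 0 and became 1, DHX9, in DESeq2 (-0.22), with the GC and length trend removed (-0.20), with that trend removed and the replicate block (-0.20), and when DMSO replicate 1 or 2 was left out, a range of 0 to 1 over the libraries left out, with DHX9 between -0.27 and -0.16. The difference of EWSR1 changed sign under TMM scaling (0.014), quantile normalization (0.053), edgeR (0.012) and DESeq2 (0.0081), and ranged from -0.042 to 0.023 over the libraries left out, being above 0 without DMSO replicate 2 or 3. The difference of DDX21 changed sign after quantile normalization (0.020), with the GC trend removed (0.028) and with that and the block (0.028), and ranged from -0.077 to 0.031 over the libraries left out, being above 0 without DMSO replicate 1. The log2 difference of the DDX5 to DDX17 ratio ranged from -0.015 to 0.042, changing sign without DMSO replicate 3 or drug-treated replicate 2, and that of DHX9 to EWSR1 from -0.30 to -0.12 over the libraries left out. The cause of these changes was not tested.

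Over all genes, 475 were called, against 277 after quantile normalization, 33 without the trend in eBayes, 1950 with the GC and length trend removed and 1862 with that trend removed and the replicate block. Leaving out 1 library gave 19 to 1823 calls. There were 1823, 676 and 242 without DMSO replicates 1, 2 and 3, and 19, 23 and 46 without drug-treated replicates 1, 2 and 3. The labels do not say whether same-numbered libraries were paired. Their deviations from the group means correlated at -0.0985, -0.0269 and -0.0267, which cannot show whether they shared a culture or day. With the replicate block 180 genes and 0 members were called, and DHX9 had a limma adjusted p of 0.134. DHX36 had the fewest reads of the members, down to 1607 in drug-treated replicate 2, and the part of depth in its spread was not tested.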
